A study of Mus musculus with 6 samples.

Results

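The genes described here encode factors of the blood stem cell niche, the marrow surroundings that hold and feed blood-forming cells. They are Cxcl12, Kitl, Angpt1, Il7, Vcam1, Lepr, Foxc1 and Ebf3, taken as a list, and all 8 were found among the 19935 genes with a named probe set. Each is read by 1 probe set with a single gene symbol, on a single-channel Affymetrix array. The samples were osteoblastic cells of male mice, on 2 arrays from mice deficient in Y1, a receptor for neuropeptide Y (Y1KO), and 4 arrays from wild-type mice (WT). Both groups carried green fluorescent protein driven by 3.6 kb of the rat alpha1(I)-collagen promoter, and fluorescent cells were sorted from marrow stromal cultures of the femora and tibias after 7 days. The sort therefore takes the cells in which that promoter is active, and neither age nor strain of the mice is given in the labels. Whether each array stands for its own animal or its own culture is not stated, so the tests weigh the spread from array to array, technical spread included.

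In the marrow, reticular stromal cells around sinusoids are the main source of these factors. The chemokine CXCL12 retains blood stem cells and lymphoid progenitors through its receptor CXCR4, stem cell factor (the product of Kitl) keeps them alive through the receptor KIT, and interleukin-7 drives early B cells. Angiopoietin-1 acts on the receptor TIE2, VCAM1 is an adhesion molecule for alpha4 integrins, and the leptin receptor marks the reticular cells. FOXC1 and EBF3 are transcription factors that mouse studies found necessary for the reticular cells and their niche factors. Osteoblasts arise from the same stromal lineage and are known for lower levels of these factors.

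All arrays had nearly the same distribution of values, with medians from 5.3 to 5.37, and 0 pairs of arrays were identical. Array pairs correlated, across genes that are no independent replicates, at 0.991 to 0.996 within a genotype and at 0.976 to 0.987 across genotypes. The 7 measured osteoblast markers lay above the 97th percentile of all genes in both genotypes, with Col1a1, the gene whose rat promoter drives the reporter, at 13.6 ± 0.03 (SD, n = 2) in Y1KO and 13.42 ± 0.05 (SD, n = 4) in WT. Npy1r, the targeted gene, was dim in both genotypes (2.86 ± 0.04 in Y1KO, n = 2, and 2.94 ± 0.15 in WT, n = 4, both SD), so it checks the labels neither way. Values below are on the log2 scale. A difference is the Y1KO mean minus the WT mean, with the standard error (SE) of the limma fit over all genes and a Benjamini-Hochberg adjusted p, called under 0.05. Percentiles of all genes are given only to show how dim a probe set was, since levels of different probe sets cannot be ranked.

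Of the 8 niche factor genes, 7 fell in Y1KO cells and 0 rose, while Lepr did not pass the test. Over all genes, 6.64% were called lower and 6.1% higher. The median difference of the 8 genes was -1.78, against 0.01 for all genes. In the 7 genes that fell, both Y1KO arrays lay below every WT array, which was so for 17.3% of all genes, and groups did not overlap in either direction for 34.8%. At least 4-fold falls were found for Cxcl12, Kitl and Ebf3, against 0.236% of all genes, and Ebf3 was under 4-fold without WT replicate 3 (-1.94). These genes were listed with earlier results of these data known, so the counts describe them and are no independent evidence. In RNA from a sorted population, fewer cells of a type and less RNA per cell cannot be told apart.

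**Figure D1:**
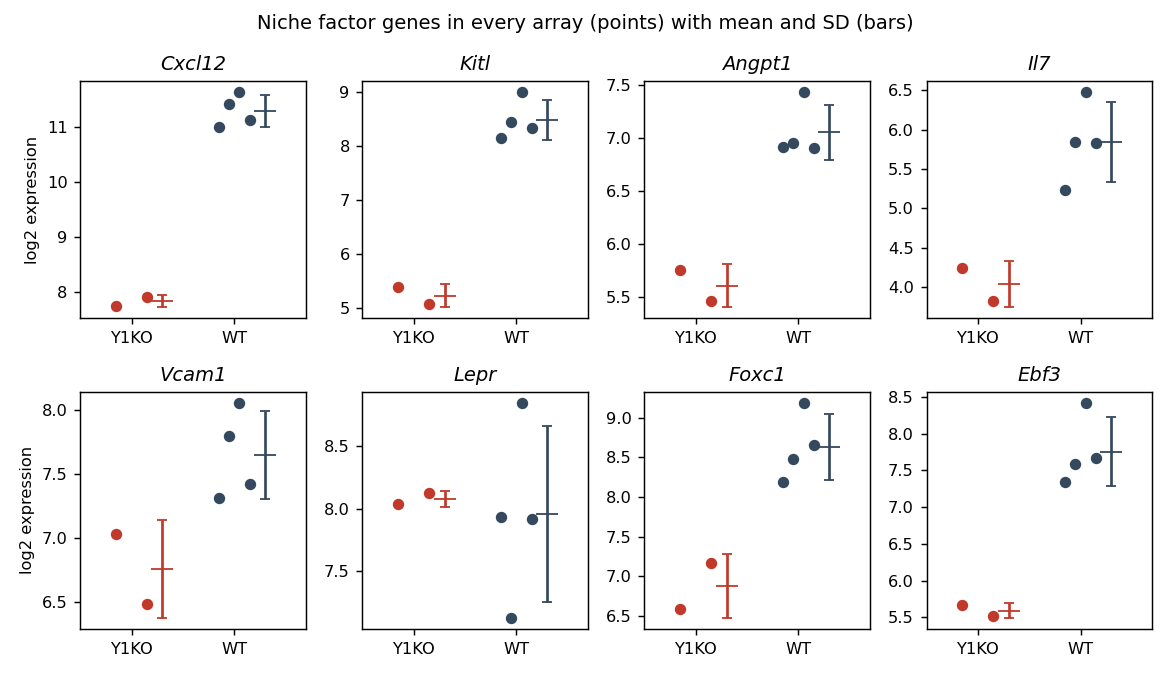
Log2 expression of the 8 niche factor genes in the 2 Y1KO arrays (red) and the 4 WT arrays (dark), 1 panel a gene, with points for arrays and bars for mean and SD. The vertical scales differ between panels and do not start at 0. The genotypes do not overlap in 7 panels, and in the Lepr panel the Y1KO arrays lie inside the range of the WT arrays.

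Among the secreted signals, Cxcl12 had the largest fall. It read 7.75 and 7.92 in the Y1KO arrays, against 11, 11.42, 11.64 and 11.13 in WT replicates 1 to 4. The gap between the highest Y1KO array and the lowest WT array was 3.09, wider than the whole range of the WT arrays, 0.64. The difference was -3.46 (limma adjusted p = 4.23e-05, SE 0.17, 95% interval -3.85 to -3.08), so that the WT mean was 11-fold the Y1KO mean, with an interval of 8.44 to 14.4. Among the differences of all genes, that of Cxcl12 had rank 3 from the most negative. Its probe set still stood at percentile 80.2 of all genes in Y1KO, against 99.3 in WT, so the Y1KO value was not at the dim end of the array.

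Kitl, which encodes the KIT ligand in membrane-bound and soluble forms, fell nearly as far. It read 5.38 and 5.08 in the Y1KO arrays, against 8.14, 8.45, 9 and 8.33 in WT replicates 1 to 4. The genotypes were 2.76 apart at their nearest arrays. The difference was -3.25 (limma adjusted p = 0.000171, SE 0.21, 95% interval -3.74 to -2.76), and the WT mean was 9.51 times the Y1KO mean (interval 6.79 to 13.3). The difference had rank 6 among the most negative of all genes. In Y1KO the probe set lay at percentile 44.2, in the dimmer part of the array where differences are understated, and in WT at percentile 87.6.

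The promoters of Cxcl12 and Kitl are shown because these genes fell the most and EBF3 and FOXC1, products of other genes that fell, are DNA-binding proteins. The letters are the 250 bases before the RefSeq start, build GRCm38.p6, plus strand, at chr6:117168285-117168534 for Cxcl12 and chr10:100015571-100015820 for Kitl. Capitals mark GC boxes (GGGCGG or CCGCCC) and a TATA box (TATAAA).
Cxcl12: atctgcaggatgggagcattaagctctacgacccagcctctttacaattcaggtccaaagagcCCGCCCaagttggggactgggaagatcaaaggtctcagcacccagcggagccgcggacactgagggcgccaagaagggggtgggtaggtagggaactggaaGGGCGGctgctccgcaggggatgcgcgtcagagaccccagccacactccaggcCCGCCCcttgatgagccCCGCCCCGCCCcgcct
Kitl: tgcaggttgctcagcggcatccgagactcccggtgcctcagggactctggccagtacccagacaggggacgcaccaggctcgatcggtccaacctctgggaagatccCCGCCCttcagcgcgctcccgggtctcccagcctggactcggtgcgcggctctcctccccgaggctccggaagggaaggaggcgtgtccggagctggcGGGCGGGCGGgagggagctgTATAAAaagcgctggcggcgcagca
RefSeq windows of 300 bases, 250 before and 50 after the start, were found for 5 of the 8 genes, Cxcl12, Kitl, Lepr, Foxc1 and Ebf3, with 6 windows in all. The EBF motif, TCCC and GGGA with any 2 bases between them, was in 0 of these 6 windows on either strand, and 0.904% of 32851 mouse promoter windows hold it. The forkhead motifs TGTTTAC and TGTTTGC were likewise in 0 of 6, and are held by 3.65% and 5.07% of all windows. GC boxes, searched after the letters had been seen, were in 5 of 6 windows and in 35.7% of all. They included a window of Lepr, which did not fall, and the Kitl window alone held a TATA box, as 13.6% of all windows do. GC content over the 250 bases before the start was 64.4% for Cxcl12, 69.2% for Kitl, 80.0% for Ebf3, 70.8% for Foxc1 and 58.4% and 54.8% for the Lepr windows, against a median of 52.4% over the same 250 bases of all windows. These are matches of letters in a short window and say nothing of binding.

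Il7 and Angpt1, the other secreted members, fell by less. Il7 read 4.25 and 3.83 in the Y1KO arrays, against 5.23, 5.85, 6.48 and 5.83 in WT replicates 1 to 4. The Y1KO arrays were both below the lowest WT array, by 0.98, and stood at percentile 23.9 of all genes, so the size of the fall is a rough one. The difference was -1.81 (limma adjusted p = 0.00488, SE 0.29, 95% interval -2.46 to -1.16). Without Y1KO replicate 2 the Il7 call was lost, at a difference of -1.6, in a fit that held 1 Y1KO array.

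Angpt1, which encodes the ligand of TIE2, read 5.75 and 5.46 in the Y1KO arrays, against 6.91, 6.96, 7.44 and 6.91 in WT replicates 1 to 4. WT replicates 1, 2 and 4 were within 0.05 of each other and WT replicate 3 stood above them, yet every WT array was at least 1.16 above the Y1KO arrays. The difference was -1.45 (limma adjusted p = 0.00141, SE 0.16, 95% interval -1.82 to -1.07), a WT mean of 2.73 times the Y1KO mean. In Y1KO, Angpt1 lay at percentile 49.8 and in WT at 68.4.

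Vcam1, the adhesion molecule, had the smallest fall among the called genes. It read 7.03 and 6.49 in the Y1KO arrays, against 7.31, 7.79, 8.06 and 7.42 in WT replicates 1 to 4. The genotypes were 0.28 apart at their nearest arrays, less than the 0.54 between the Y1KO arrays themselves. The difference was -0.89 (limma adjusted p = 0.0334, SE 0.22, 95% interval -1.39 to -0.38), and the WT mean was 1.85 times the Y1KO mean. This call was lost without Y1KO replicate 1 (-1.16, limma adjusted p = 0.0572), without Y1KO replicate 2 (-0.61, limma adjusted p = 0.312) and without WT replicate 2 (-0.84, limma adjusted p = 0.0535).

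Both transcription factor genes of the reticular cells fell. Ebf3 read 5.66 and 5.52 in the Y1KO arrays, against 7.34, 7.58, 8.42 and 7.67 in WT replicates 1 to 4. The Y1KO arrays were close together and 1.68 below the nearest WT array. The difference was -2.16 (limma adjusted p = 0.00152, SE 0.25, 95% interval -2.74 to -1.59), a WT mean of 4.47 times the Y1KO mean (interval 3 to 6.66). Ebf3 lay at percentile 49.6 in Y1KO and 78.7 in WT. Foxc1 read 6.59 and 7.16 in the Y1KO arrays, against 8.19, 8.48, 9.19 and 8.65 in WT replicates 1 to 4. Its Y1KO arrays differed by 0.57, the widest gap between them among the 8 genes, and both were at least 1.03 below the WT arrays. The difference was -1.75 (limma adjusted p = 0.0036, SE 0.26, 95% interval -2.33 to -1.16), a WT mean of 3.36 times the Y1KO mean.

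Lepr, the leptin receptor gene, was the exception. It read 8.03 and 8.12 in the Y1KO arrays, against 7.93, 7.12, 8.85 and 7.92 in WT replicates 1 to 4. The WT arrays spread over 1.73, from WT replicate 2 to WT replicate 3, and the Y1KO arrays, 0.09 apart, lay between them. The difference was 0.12 (limma adjusted p = 0.898, SE 0.37, 95% interval -0.72 to 0.96), an interval that holds changes in either direction. Its sign turned without WT replicate 2, to -0.15.

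The change of each other member was also set against that of Lepr, a test chosen after the values were seen. Subtracting Lepr within each array, the genotype difference was -3.59 for Cxcl12, -3.37 for Kitl, -2.28 for Ebf3, -1.93 for Il7, -1.87 for Foxc1, -1.57 for Angpt1 and -1.01 for Vcam1. In all 7 pairs both Y1KO arrays were below all WT arrays, as they were before Lepr was subtracted. The share of all genes for which this held after subtracting Lepr was not computed. A two-sided exact permutation test gave p = 0.0667 for each but Vcam1 (p = 0.133), and 0.0778 and 0.133 after Benjamini-Hochberg adjustment over the 7 pairs. The 15 splits of these arrays allow no p below 0.0667.

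**Figure D2:**
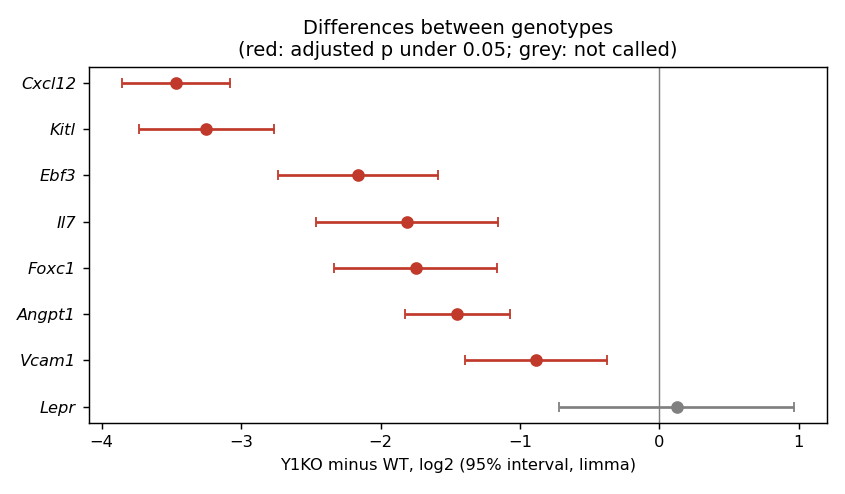
Y1KO minus WT difference on the log2 scale for each niche factor gene, sorted by size, with the 95% interval of the limma fit; red marks an adjusted p under 0.05. Cxcl12 at -3.46 and Kitl at -3.25 lie apart from the others, whose called differences run from -2.16 for Ebf3 to -0.89 for Vcam1, and the interval of Lepr spans 0.

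The 8 genes varied in a shared way among the WT arrays, which genotype does not enter. WT replicate 3 held the highest WT value of all 8 genes. Over all genes it held the highest for 21.6% and the lowest for 35.6%, the largest share of lowest values among the WT arrays. WT replicate 1 held the lowest WT value of 6 of the 8, all but Lepr, lowest in WT replicate 2, and Angpt1, lowest in WT replicate 4; WT replicate 1 was lowest for 18.6% of all genes. Relative to the WT mean, WT replicate 3 was higher by 0.34 for Cxcl12, 0.38 for Angpt1, 0.41 for Vcam1, 0.52 for Kitl, 0.56 for Foxc1, 0.63 for Il7, 0.67 for Ebf3 and 0.90 for Lepr. For the 7 genes that fell, this spread among WT arrays was smaller than the difference between genotypes. The WT standard deviations of the 8 genes, 0.26 for Angpt1 to 0.71 for Lepr, were at or above percentile 91 of all genes.

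In the same WT replicate 3, the mean of the adipocyte marker list was 0.25 above the WT mean, that of the smooth muscle and pericyte markers 0.12, that of the macrophage markers 0.03 and that of the osteoblast markers 0.03. Of the 24 measured genes on a list of reticular and mesenchymal stem cell genes, 12 were highest in WT replicate 3. Whether the make-up of the sorted cells or the handling of that array moved with the niche genes was not tested. Without WT replicate 3 the count of niche genes called lower was 7, with Cxcl12 at -3.35 and Kitl at -3.08.

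**Figure D3:**
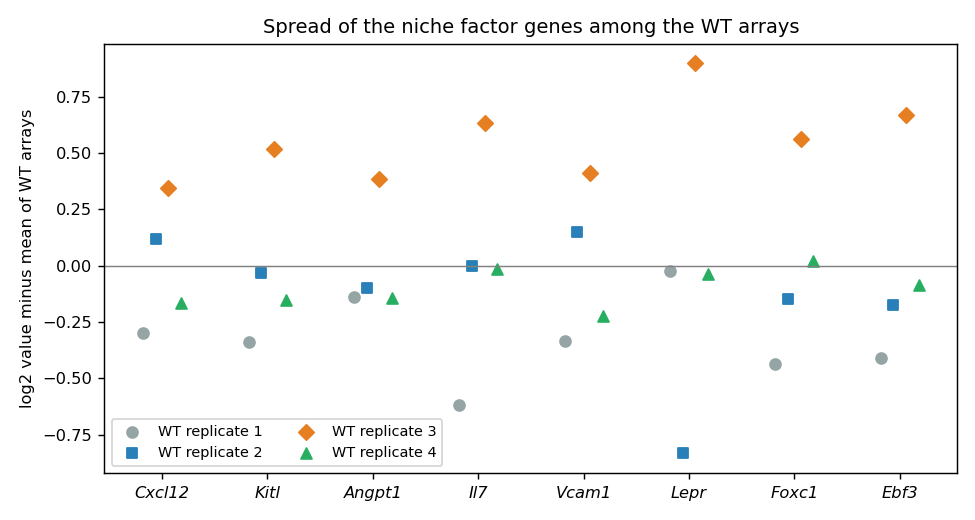
Log2 value of each of the 4 WT arrays minus the mean of the WT arrays, for the 8 niche factor genes, with 1 symbol a replicate. WT replicate 3 is on top for every gene, from 0.34 for Cxcl12 to 0.90 for Lepr, and WT replicate 2 is 0.83 below the mean for Lepr.

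Of 11 measured receptors and partners of the niche factors, 3 rose and 0 fell, with a median difference of 0.02. The shares of all genes called higher and lower were 6.1% and 6.64%. Kit, the receptor of the Kitl product, read 7.1 and 7.12 in the Y1KO arrays, against 6.34, 6.4, 6.51 and 6.49 in WT, a difference of 0.67 (SE 0.09, limma adjusted p = 0.00252). Ackr3, an atypical receptor that takes up CXCL12, read 5.88 and 5.96 in the Y1KO arrays, against 5.33, 5.1, 5.2 and 4.99 in WT, a difference of 0.77 (SE 0.11, limma adjusted p = 0.00321). Itga4, the alpha4 integrin subunit that binds VCAM1, was 0.94 higher (SE 0.15, limma adjusted p = 0.0057). Without Y1KO replicate 2 the call of Ackr3 was lost (0.73, limma adjusted p = 0.0554), and that of Itga4 was lost without Y1KO replicate 1 (0.92, limma adjusted p = 0.0579) or Y1KO replicate 2 (0.96, limma adjusted p = 0.0672).

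For the other receptors and partners the differences were small and not past the test. Cxcr4, the CXCL12 receptor, differed by 0.13, the integrin subunit genes Itgb1 and Itgb7 by 0.02 and -0.17, the interleukin-7 receptor gene Il7r by 0.08 and the leptin gene Lep by -0.13. Tek, which encodes TIE2, and the related Tie1 differed by -0.03 and -0.05. Il7r, Lep, Tek and Tie1 lay below percentile 30 in both genotypes, too dim to show a change reliably. Cxcr4 and Itgb7 also lay below the median of all genes in both genotypes. In WT so did Ackr3 (percentile 42.9) and Itga4 (37.4), which limits how well the size of their rises is known. Leprot, whose product controls the leptin receptor at the cell surface, differed by -0.10. The macrophage marker mean was 0.24 and 0.67 above the WT mean in Y1KO replicates 1 and 2, and its part in the rise of Kit, Ackr3 and Itga4 was not tested.

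Of 28 measured other signals of the niche, 7 fell and 3 rose, with a median difference of -0.06. Among all genes 6.64% were called lower and 6.1% higher, so 3 rising signals say little about the list. Csf1, the growth factor of macrophages and osteoclast precursors, read 8.69 and 8.62 in the Y1KO arrays, against 10.2, 10.79, 10.21 and 10.21 in WT, and fell by 1.69 (SE 0.17). Jag1, a Notch ligand, fell with a difference of -1.54, as did Bmp4, a bone morphogenetic protein, at -0.996 and Cxcl14, a chemokine, at -2.71. The limma adjusted p was 0.000852 for Jag1, 0.000877 for Csf1 and Bmp4 and 0.00622 for Cxcl14. The call of Cxcl14 was lost without Y1KO replicate 2 (-2.39, limma adjusted p = 0.0933), and leaving out Y1KO replicate 1 left 4 falling signals, Y1KO replicate 2 left 3. The growth factor genes Tgfb1, Fgf1 and Ptn were 0.48, 0.47 and 0.51 higher (limma adjusted p = 0.0255, 0.0338 and 0.0431), and 0 signals were called higher without Y1KO replicate 1, without Y1KO replicate 2 or without WT replicate 4; without WT replicate 1 or WT replicate 2 the count was 2.

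Of 24 measured genes of reticular and mesenchymal stem cells, 12 fell and 3 rose, with a median difference of -0.66. For comparison, 6.64% of all genes were called lower and 6.1% higher. Lpl, lipoprotein lipase, read 7.11 and 7 in the Y1KO arrays, against 9.48, 9.97, 10.06 and 9.53 in WT, and fell by 2.71 (SE 0.17, limma adjusted p = 0.000171). Ebf1, a relative of Ebf3, read 7.29 and 7.18 in the Y1KO arrays, against 8.78, 9, 9.09 and 8.74 in WT, and fell by 1.67 (SE 0.12, limma adjusted p = 0.000235). For both genes the nearest arrays of the genotypes were over 1 apart. Pdgfrb, which encodes the beta receptor for platelet-derived growth factor, fell with a difference of -1.60, and so did Snai2, a mesenchymal transcription factor gene, at -1.33. Nt5e, an ectoenzyme that makes adenosine, rose by 1.89, the proteoglycan gene Cspg4 by 1.16 and the transcription factor gene Klf4 by 0.97. The 9 genes not called included Adipoq at -0.93, Tbx15 at -0.43, Itgav at -0.42, Cebpb at -0.26 and Prrx1 at -0.22. The rest of them were Nes at -0.13, Pdgfra at -0.12, Thy1 at -0.11 and Cd200 at 0.46. Without Y1KO replicate 1 or 2, 1 gene was called higher in each case and 9 and 8 were called lower, and without WT replicate 3 the called numbers were 2 and 14, higher and lower. The calls lost without a Y1KO array included Cspg4 (limma adjusted p = 0.0929 and 0.115 without replicates 1 and 2) and Klf4 (0.21 and 0.152), and Klf4 also lost its call without WT replicate 3 (0.0635).

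Genes that release, cleave or control the niche factors mostly did not pass. Of 15 measured, 2 rose and 1 fell, with a median difference of 0.02. Over all genes 6.1% rose and 6.64% fell, so counts this small say nothing particular about the list. Gjc1, a connexin gene known from mouse stroma for a part in CXCL12 release, fell by 1.10 (SE 0.11, limma adjusted p = 0.000834). It read 5.36 and 5.46 in the Y1KO arrays, against 6.42, 6.47, 6.71 and 6.45 in WT. Gja1, another connexin gene of the list and a brighter one, differed by -0.08 and was not called (limma adjusted p = 0.806). The proteases Adam10 and Mmp2, which cut membrane proteins and matrix or chemokines, were 0.52 and 0.40 higher (limma adjusted p = 0.0199 and 0.0263). Both calls were lost without Y1KO replicate 1 (0.108 and 0.0814) or Y1KO replicate 2 (0.168 and 0.242), and that of Mmp2 without WT replicate 4 (0.0588); without WT replicate 3 the list held 3 rising genes. In leptin receptor signalling, 3 of 12 measured genes fell and 0 rose, with a median of 0.08. These were the signal transducers Stat5b at -0.53 and Stat5a at -0.36 and the phosphatase gene Ptpn11 at -0.42, with limma adjusted p from 0.00833 to 0.0432. Without either Y1KO array 0 of them were called, and the Stat5a call was also lost without WT replicate 1 (0.0749), WT replicate 2 (0.0758) or WT replicate 3 (0.0644), each of which left 2 falling genes.

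**Figure D4:**
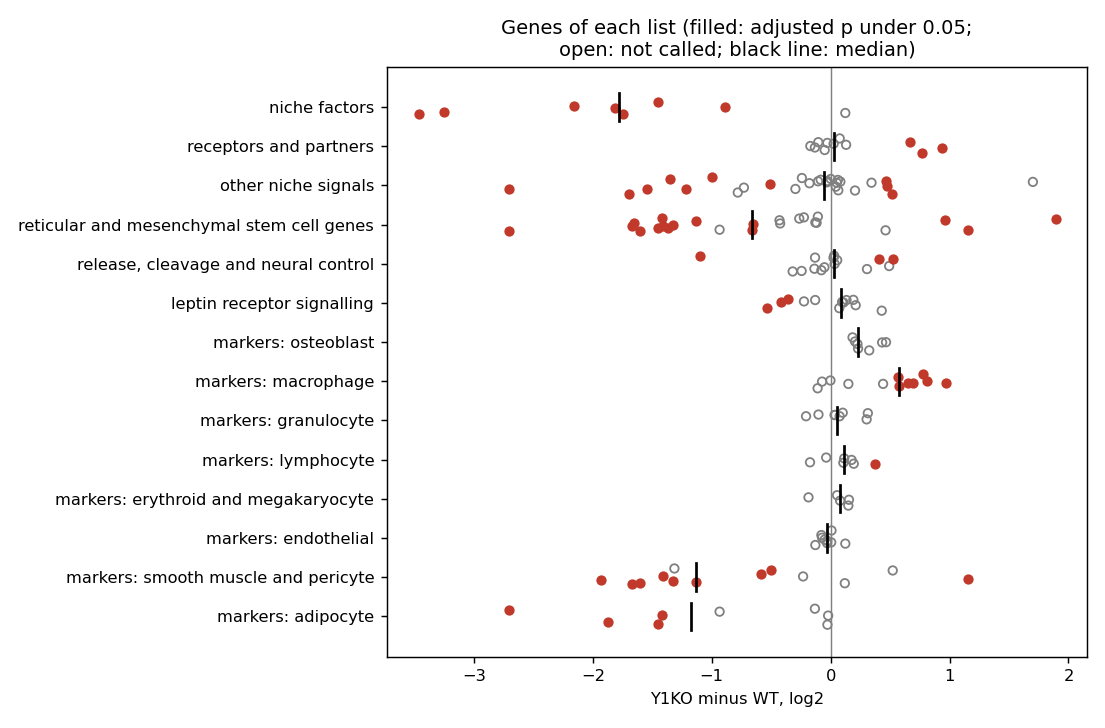
Y1KO minus WT difference on the log2 scale for every measured gene of each list, 1 row a list, with filled points for an adjusted p under 0.05, open points for the others and a black line at the median. The niche factor median is -1.78, that of their receptors and partners 0.02, and those of the adipocyte and smooth muscle markers -1.18 and -1.13.

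Markers of other cells were read in the same arrays, where 6.64% of all genes were called lower and 6.1% higher. Of 8 adipocyte markers, 4 fell and 0 rose, with a median of -1.18: Lpl, Pparg at -1.45, Cebpa at -1.42 and Fabp4 at -1.87. Lpl, Pparg, Cebpa and Adipoq are also on the reticular list. The 4 adipocyte markers that were not called, all below the median of all genes in both genotypes, were Adipoq at -0.93 (limma adjusted p = 0.266, genotypes not overlapping), Lep at -0.13, Plin1 at -0.03 and Cidec at -0.02. Of 13 smooth muscle and pericyte markers, 8 fell and 1, Cspg4, rose, with a median of -1.13. The contractile genes Actg2, Myl9, Mylk and Tagln were among those that fell, at -1.93, -1.60, -1.32 and -1.13, and Acta2 fell by 0.50. The 4 markers of this list that were not called were Rgs5 at -1.31, Abcc9 at -0.23, Kcnj8 at 0.12 and Des at 0.52. The limma adjusted p was 0.142 for Rgs5 and 0.0772 for Des. The summed level of a list adds its genes off the log scale, so the brightest probe sets weigh most in it. For smooth muscle and pericyte genes its log2 was 13.05 to 13.15 in the Y1KO arrays and 13.79 to 14.04 in WT. For the adipocyte list it was 8.81 in both Y1KO arrays and 10.39 to 10.94 in the WT arrays. The count of falling smooth muscle and pericyte markers was 4 without either Y1KO array, the count of rising ones was then 0, and it was 2 without WT replicate 2. The part of these cells in the fall of the niche factors was not tested.

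Of 12 macrophage markers, 7 rose and 0 fell, with a median of 0.57, while 6.1% of all genes rose and 6.64% fell. Their summed level was 10.15 to 10.80 in the Y1KO arrays, against 9.56 to 10.02 in the WT arrays. Lyz2 was the brightest of these probe sets, at a mean of 9.45 in Y1KO and 8.49 in WT, and so weighs most. Lyz2, Adgre1, C1qa and Csf1r were among those that rose, at 0.97, 0.81, 0.58 and 0.57. The 5 macrophage markers that were not called were C1qb at 0.44, Ptprc at 0.15, Itgam at -0.0016, Cd14 at -0.07 and Fcer1g at -0.11. The count of rising macrophage markers was 0 without Y1KO replicate 2 and 2 without WT replicate 4. Endothelial markers, 9 in all and with Tek and Tie1 among them, had 0 calls in either direction and a median of -0.03, and 8 of the 9 were below the median of all genes in both genotypes. The 8 granulocyte and 5 erythroid and megakaryocyte markers had 0 calls, and all lay below the median of all genes in both genotypes. Of 7 lymphocyte markers, Cd4 alone was called, higher by 0.37 at percentiles 22.5 in Y1KO and 17.4 in WT. Its call was lost without any 1 array except WT replicate 3. The 7 osteoblast markers had differences of 0.18 to 0.47, with 0 past the test and a summed level of 15.58 to 15.59 in the Y1KO arrays and 15.16 to 15.40 in the WT arrays.

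The genes with the nearest pattern were found by the root mean square distance over the 6 arrays between log2 profiles set to the WT mean, among 9738 genes above the median level. Predicted genes, with Gm or Rik symbols, were left out. For Cxcl12 they were Arrdc4, an arrestin-domain gene, at a distance of 0.16, Kitl at 0.21 and Il1rn, the interleukin-1 antagonist gene, at 0.33. For Kitl they were Arrdc4 at 0.15, Cxcl12 at 0.21 and the kininogen gene Kng1 at 0.28. Cxcl12 and Kitl were each among the 3 nearest of the other. Their falls had ranks 3 and 6 of all genes, so few genes could lie near them. For Ebf3 they were Epas1, a hypoxia-related transcription factor gene, at 0.13, the integrin gene Itga1 at 0.13 and the growth factor gene Vegfc at 0.18. For Foxc1 they were the amine oxidase gene Aoc3 at 0.13, the ceruloplasmin gene Cp at 0.13 and Cd93 at 0.18.

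For Angpt1 the nearest were the mitochondrial ribosome gene Mrps6 at 0.12, the adhesion receptor gene Adgra2 at 0.12 and Cebpa at 0.13. For Il7 they were Slfn5 at 0.17, the Wnt receptor gene Fzd4 at 0.20 and the matrix protein gene Mgp at 0.21. For Vcam1 they were the laminin gene Lama1 at 0.10, Samd9l at 0.12 and Cks1b, a gene of the cell cycle, at 0.13. All of these genes fell in Y1KO by amounts near that of the member they resemble, which sets most of the distance. Il1rn fell further than Cxcl12, at -3.97 against -3.46. Without Y1KO replicate 2 the calls of Lama1, Samd9l, Cks1b, Fzd4, Cd93 and Vegfc were lost (limma adjusted p = 0.159, 0.175, 0.111, 0.0725, 0.0671 and 0.0527), and without Y1KO replicate 1 those of Samd9l (0.0911) and Cd93 (0.173).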

How the data were processed

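Total RNA of sorted osteoblastic cells was labelled with biotin by a whole-transcript kit and read on 6 arrays, per the labels' protocols. The deposited values are log2 expression for 28815 probe sets. The submitters' processing notes name RMA and limma, with neither versions nor settings, and the authors' build and probe annotation are not stated. GEO's platform annotation gave 21780 probe sets 1 symbol, 1605 several and 5430 none, and may be out of date. The brightest probe set with 1 symbol stood for a gene, leaving 19935 genes. The values were not normalized again. Arrays have no read depth, and their number limits the precision.

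Y1KO (n = 2) was compared with WT (n = 4) in R 4.3.3 with limma 3.58.1 (lmFit, then eBayes, genotype only), two-sided, with adjustment over all genes. The fit was run on simulated data with independent noise for each gene and no spread shared by the genes of an array. That run does not give the rate of false calls in these data. Members and lists were chosen with earlier results of these data known, so lists are described by counts and medians, without a test. Named were all members, every measured receptor and partner, up to 4 called genes of smallest p in each direction from each other list, the 3 genes nearest in pattern to each called member, Npy1r and Col1a1. Names outside this rule were chosen after their values were seen. List genes that no probe set reads alone were left out. The alternatives were other normalizations, filters, probe set rules and variance models, array weights, a replicate block and leaving out each array. Promoter sequences are from RefSeq (GRCm38.p6).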

Additional observations from a re-analysis of the deposited data

Results flagged for a closer look

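In the 4 WT arrays, 1 array stood apart from the other 3 by Dixon's criterion (the gap to the nearest array as a share of the group's range) for 7 of 70 named genes, and for 5.75% of all genes; chance flags about 1 in 20 groups. Of the 8 niche factor genes, Angpt1 alone was so marked, with 7.44 in WT replicate 3 against 6.91 to 6.96 in the others. In the same array Leprot read 8.77 (others 8.38 to 8.44), Mgp 8.71 (others 7.85 to 7.94) and Vegfc 8.62 (others 7.29 to 7.5). In WT replicate 2, Csf1 read 10.8 (others 10.2 to 10.21), C1qa 5.98 (others 5.83 to 5.85) and Tagln 11.3 (others 10.9 to 10.95).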

How the results depend on the processing

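Cxcl12 and Kitl kept their direction and their call under all alternatives, leaving out any 1 array included. Without moderation of the variance, 2 of the 8 niche genes were called lower, and Angpt1 (-1.45, adjusted p = 0.0651), Ebf3 (-2.16, 0.074), Foxc1 (-1.75, 0.1), Il7 (-1.81, 0.112) and Vcam1 (-0.89, 0.217) lost their calls. In that setting 204 genes were called lower and 140 higher in all, against 1324 and 1217. The numbers lower were then 1 other niche signal, 4 reticular genes and 0 of leptin signalling, and the numbers higher 1 receptor or partner, 0 signals, 1 reticular gene and 0 release genes. Of the cell type markers, 3 smooth muscle and pericyte and 1 adipocyte marker were then called lower, and 0 macrophage, 0 lymphocyte and 0 smooth muscle and pericyte markers higher. The filter at the 60th percentile removed dim genes before the fit, Il7, Ackr3 and Itga4 among them, so these were not tested there. It left 6 niche genes and 5 other niche signals called lower. It left 1 receptor or partner and 1 macrophage marker called higher. Quantile normalization, the filter at the 40th percentile, trend and robust options and array weights each gave 2 release genes called lower.

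Leaving out 1 array at a time, differences ran from -3.56 to -3.35 for Cxcl12, -3.4 to -3.08 for Kitl, -1.6 to -1.3 for Angpt1, -2.02 to -1.6 for Il7, -1.16 to -0.61 for Vcam1, -0.15 to 0.42 for Lepr, -2.04 to -1.46 for Foxc1 and -2.3 to -1.94 for Ebf3. The niche genes called lower numbered 5 to 7. All genes called numbered 335 to 1290 lower and 152 to 1172 higher. The fewest came without Y1KO replicate 2; without Y1KO replicate 1 the count of all genes called lower was 572 and the count of all genes called higher 372. The list counts were 1 to 3 receptors higher, 3 to 7 signals lower and 0 to 3 higher, 8 to 14 reticular genes lower and 1 to 3 higher, 0 to 3 release genes higher, and 0 to 3 leptin signalling genes lower and 0 to 1 higher.

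The labels do not say that a shared replicate number pairs arrays. Deviations from the group means of same-numbered arrays correlated at 0.01 and -0.20. With 2 Y1KO arrays, whose deviations mirror each other, this cannot show whether the arrays are paired. A replicate block leaves the genotype difference to replicates 1 and 2 of each group, since replicates 3 and 4 were in WT alone. In that fit Vcam1 was -0.79 (adjusted p = 0.0734). The other members kept their side of the threshold, with Ebf3 at -1.87, under 4-fold. Among 62 other named genes, 787 of 900 values kept direction and call, 104 lost the call and 9 turned sign, all of genes not called: Tek (0.0386 with the replicate block, -0.101 to 0.0214 leaving out an array), Tie1 (-0.171 to 0.0711 leaving out an array), Itgb1 (-0.0396 with the block, -0.0311 to 0.0712 leaving out an array) and Itgb7 (-0.367 to 0.0259 leaving out an array). Why calls changed was not tested. In Y1KO, Il7 (percentile 23.9), Kitl (44.2), Ebf3 (49.6) and Angpt1 (49.8) lay below the median of all genes, which limits how well the size of their falls is known.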
